A study of Mus musculus with 16 samples.

Results

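Chromatin marks were described at 10 genes of bile acid synthesis and transport in regenerating mouse liver, chosen by name from the 21887 genes that code for protein. Cyp7a1, Cyp8b1, Cyp27a1 and Baat make or conjugate bile acids. Nr1h4 and Nr0b2 encode the nuclear receptors FXR and SHP. Abcb11, Abcc2, Slc10a1 and Slco1b2 encode transporters. Each gene was followed in 8 lists of called regions from chromatin immunoprecipitation and sequencing (ChIP-seq). H3K4me2 and H3K27ac were read as the length covered over the gene and 5000 bp beyond both ends, here called its window. For E2f4, a transcription factor of the E2F family, the summits of peaks in the same window were counted.

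Livers came from KO mice (Arid1a Fl/Fl; Alb-cre), which lack the chromatin remodelling subunit Arid1a where the albumin promoter drives Cre, and from WT mice (Arid1a Fl/Fl), which carry the same floxed alleles without Cre. All mice were of a C57/B6 and 129 mix, aged 90 days, and livers were taken 40 h after partial hepatectomy and frozen. Hepatocytes were isolated after fixation in 1% formaldehyde for 20 min, per the labels. E2f4 had 2 libraries per genotype and each mark 1, so differences in a mark have no replicate check and no p-value, and genes cannot be ordered beyond a replicate spread. The labels do not say whether the E2f4 replicates came from separate animals.

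Hepatocytes make bile acids from cholesterol by a classic pathway that Cyp7a1 opens and an alternative pathway that uses Cyp27a1. Bile acids are conjugated to amino acids, pumped into bile across the canalicular membrane, reabsorbed in the gut and taken up again from portal blood. FXR senses bile acids and induces SHP, which represses Cyp7a1 and Cyp8b1, so that synthesis is held down when bile acids are plentiful. Bile acids are also known to influence regrowth of the liver after hepatectomy. Promoters and enhancers carry H3K4me2, and the active ones among them also carry H3K27ac.

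The H3K4me2 lists held 73042 regions in KO and 66832 in WT, covering 112 Mb in KO and 104 Mb in WT. The H3K27ac lists held 54652 regions in KO and 63321 in WT, covering 104 Mb in KO and 113 Mb in WT. The E2f4 lists held 287 and 683 peaks in KO, against 1791 and 1058 in WT. Covered length depends on sequencing depth and enrichment, which the lists do not give, and a mark on fewer cells and a weaker mark in every cell cannot be told apart. Both marks lay at all 16 hepatocyte markers in both genotypes, with summed lengths in KO at 106% of WT for H3K4me2 and 104% for H3K27ac.

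The H3K27ac libraries also differed at sex chromosome genes. The Y genes Ddx3y, Kdm5d, Eif2s3y and Uty had H3K27ac at 0 of 4 in KO and at 4 of 4 in WT, with 889 to 3161 bp each in WT. Xist, the RNA of the inactive X chromosome, had 3536 bp of H3K27ac in KO and 0 bp in WT. In the H3K4me2 libraries Xist was covered in both, with 10640 bp in KO and 10990 bp in WT, and the Y genes had 0 bp in both. Of 7 male-biased liver genes tested for H3K27ac, 5 were shorter and 1 longer in KO, and 7 of 7 female-biased liver genes were longer, with a summed 62564 bp in KO against 6877 bp in WT. Every H3K27ac difference below is therefore between libraries that differ in genotype and in this pattern, and the 2 cannot be told apart. For H3K4me2, 5 of 8 female-biased genes were shorter and 1 longer in KO, and 0 of 6 male-biased genes passed in either direction.

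Markers of other liver cells also moved with genotype. H3K4me2 was longer in KO at 8 of 12 endothelial and 5 of 10 stellate cell markers and shorter at 7 of 9 lymphocyte markers, with summed lengths in KO at 145%, 192% and 42.2% of WT. Over all genes tested, 5.98% were shorter and 11.9% longer for H3K4me2, and 17.3% shorter and 13.2% longer for H3K27ac. For H3K27ac, 4 of 12 endothelial and 3 of 7 stellate markers were shorter in KO, at 71.8% and 73.1% of the WT sums. Of 6 lymphocyte markers tested for H3K27ac, 1 was shorter and 1 longer, with a sum in KO at 102% of WT. Macrophage markers went both ways, and the defining genes Krt7 and Krt19 (bile duct cells), Cd8a (T cells) and Ncr1 (NK cells) were at 0 for both marks in both genotypes. The part of these cells in the results at the bile acid genes was not tested.

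All 10 bile acid genes carried both marks over their start in both genotypes. For Cyp7a1 and Baat the start was taken as the gene end with more H3K4me2, which favours that mark there by construction. A gene was tested when 500 bp or more were covered in either library, and called shorter or longer when the covered lengths differed at least 1.5-fold. For H3K4me2, 1 of 10 was shorter in KO (Cyp8b1) and 0 longer, against 5.98% shorter and 11.9% longer among the 16495 genes tested. For H3K27ac, 1 of 10 was shorter (Cyp8b1) and 1 longer (Slc10a1), against 17.3% shorter and 13.2% longer among 14598. These counts lie near the background and do not set the 10 genes apart as a group.

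The median share of the window under H3K4me2 was 37.0% in KO and 43.8% in WT over the 10 genes, against 13.1% and 12.3% over all genes tested. For H3K27ac it was 50.6% in KO and 59.0% in WT, against 11.2% and 11.8%. The median difference, KO minus WT, was -3.27 percentage points for H3K4me2, with 6 genes lower and 4 higher, and 3.90 points for H3K27ac, with 3 lower and 7 higher. Over all genes tested it was 0.57 points for H3K4me2 and -0.125 for H3K27ac. Dividing each list by its own covered length shifted the median log2 ratio of all genes by -0.10 for H3K4me2 and 0.12 for H3K27ac. Calls over all genes then stood at 7.78% shorter and 9.14% longer for H3K4me2, and 14.2% shorter and 16.8% longer for H3K27ac. The 10 genes were then 8 lower and 2 higher for H3K4me2 and still 3 lower and 7 higher for H3K27ac. H3K4me2 covered the largest share at Slc10a1 in both genotypes, followed by Nr0b2. For H3K27ac the largest share was at Slc10a1 in KO, followed by Baat, and at Cyp8b1 in WT, followed by Baat. Abcb11 had the smallest share for both marks in both genotypes. Of the 10 windows, 5 overlapped another annotated gene, among them Srsf5 in that of Slc10a1 and Mrpl50 in that of Baat. Any mark on those genes counted in the share.

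**Figure D1:**
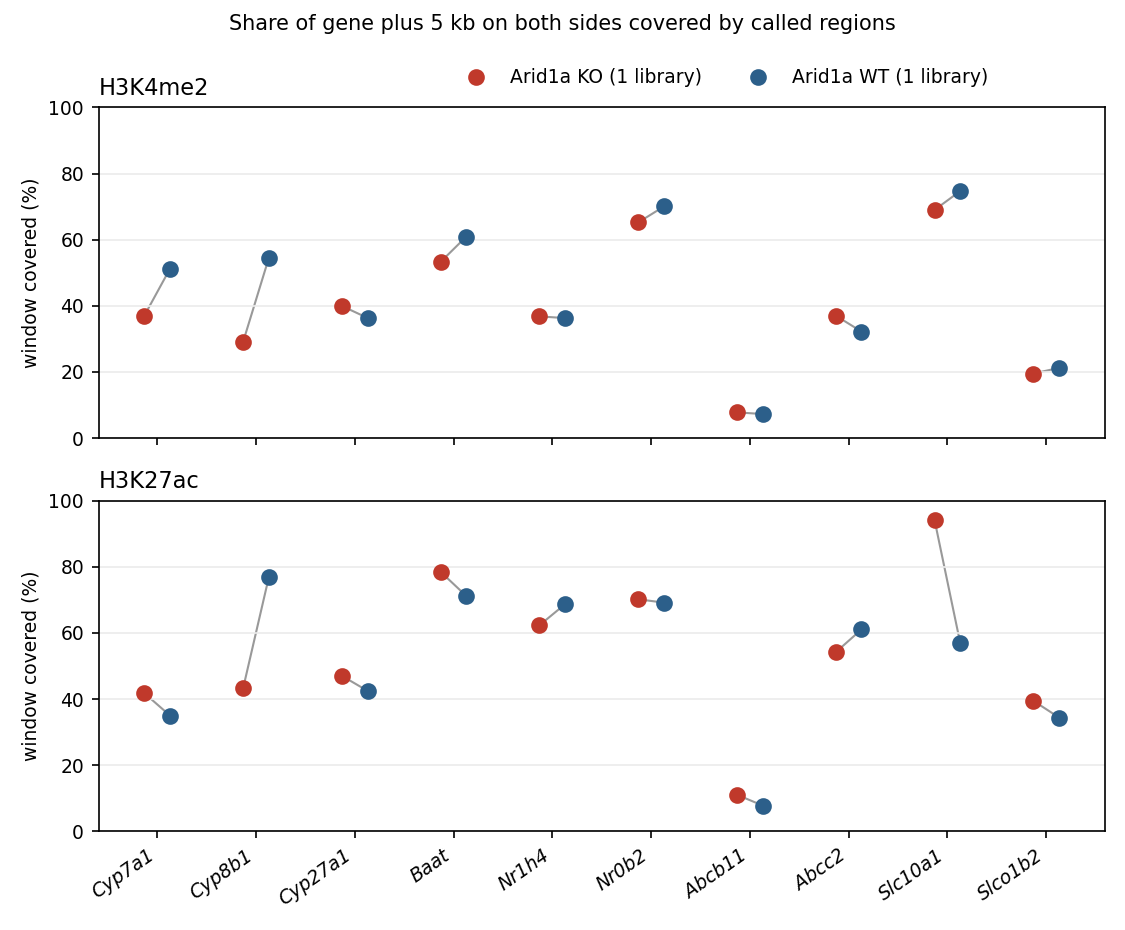
Percent of each gene's window covered by H3K4me2 (upper panel) and H3K27ac (lower panel) at the 10 bile acid genes, with KO left of WT. Each point is 1 library, so there are no error bars, and lines join the 2 points of a gene. Cyp8b1 is lower in KO for both marks, and Slc10a1 reaches 94.2% for H3K27ac in KO against 56.9% in WT.

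Cyp8b1 encodes the sterol hydroxylase that commits intermediates to cholic acid and so sets the ratio of cholic acid to other bile acids. It lies at chr9:121914356-121916305 (minus strand, mm10). H3K4me2 covered 3483 bp of its window in KO and 6511 bp in WT, which is 29.1% against 54.5%, a ratio of 0.535. H3K27ac covered 5180 bp in KO and 9190 bp in WT, which is 43.3% against 76.9%, a ratio of 0.564. Both marks were shorter in KO, as at 1.93% of the 14431 genes tested for both. Only 23 of 16495 genes, this one included, were as far down in H3K4me2 points, and 22 of 14598 in H3K27ac points. No other gene of the 14431 was as far down in both. The cutoffs here were the values of Cyp8b1 itself, so these counts give its position and are no test. Points also depend on window length, and the window of Cyp8b1 (11950 bp) was the shortest among the 10 genes.

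The difference at Cyp8b1 lay outside the gene. Both marks covered the whole gene in both genotypes. With 10000 bp on both sides the ratios were 0.723 for H3K4me2 and 0.700 for H3K27ac, short of the call, as was H3K4me2 with 2000 bp (0.722). The region over the start reached 2978 bp downstream of it in KO and 5191 bp in WT for H3K4me2, and 2439 bp in KO and 5346 bp in WT for H3K27ac. Upstream, H3K4me2 ended 504 bp from the start in KO and 877 bp in WT, and H3K27ac 494 bp in KO and 1428 bp in WT. The stretch covered in WT alone ran over 2213 bp for H3K4me2 (chr9:121911114-121913326) and 2907 bp for H3K27ac (chr9:121910959-121913865). These stretches lie between the end of Cyp8b1 and the end of its neighbour Ackr2 at 121911075, with the H3K27ac stretch entering Ackr2. A separate upstream H3K27ac region was present in both genotypes, 9651 bp wide in KO and 9367 bp in WT, and reached outside the window.

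The promoter of Cyp8b1 (chr9:121916256-121916555, minus strand, RefSeq GRCm38.p6) lies under both marks in both genotypes and is shown because the gene stands farthest from the others. Capitals mark the word TATAAA, which starts 31 bases upstream of the transcription start.
Cyp8b1: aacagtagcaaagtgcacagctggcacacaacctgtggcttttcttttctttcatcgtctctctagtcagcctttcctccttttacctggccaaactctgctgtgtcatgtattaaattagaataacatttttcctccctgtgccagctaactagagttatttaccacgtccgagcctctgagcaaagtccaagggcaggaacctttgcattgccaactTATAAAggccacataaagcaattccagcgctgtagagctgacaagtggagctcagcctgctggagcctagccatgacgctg

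Cyp7a1, the rate-limiting enzyme of the classic pathway, lies at chr4:6265612-6275632. H3K4me2 covered 7417 bp of its window in KO and 10263 bp in WT (37.0% against 51.3%, ratio 0.723), short of the 1.5-fold call. Of 16495 genes, 122 were as far down in H3K4me2 points. The H3K4me2 region over the start was 5394 bp wide in KO and 8139 bp in WT, and the 2656 bp covered in WT alone lay inside the gene (chr4:6268104-6270759). Within the gene alone the ratio was 0.647, past the call. H3K27ac covered 8366 bp in KO and 7007 bp in WT, a ratio of 1.19 over the window but 0.592 within the gene, where it passed the call. In place of the single WT region of 5262 bp over the start, KO had 3 separate regions that overlapped it, the one over the start being 1714 bp wide. Beyond the gene's other end, an H3K27ac region was 3526 bp wide in KO and 1382 bp in WT. The direction for H3K27ac at Cyp7a1 thus depended on the part of the locus read.

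Cyp27a1, the mitochondrial sterol hydroxylase of the alternative pathway, lies at chr1:74713148-74737897. H3K4me2 covered 13879 bp in KO and 12621 bp in WT (ratio 1.10), and H3K27ac 16341 bp in KO and 14763 bp in WT (ratio 1.11). Baat, which joins bile acids to taurine or glycine, lies at chr4:49489416-49507915. H3K4me2 covered 15193 bp of it in KO and 17374 bp in WT (ratio 0.874), and H3K27ac 22366 bp in KO and 20282 bp in WT (ratio 1.10). Neither gene passed the call for either mark. Of the 4 synthesis genes, Cyp8b1 alone passed the call, and it did so for both marks.

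Nr1h4 encodes FXR, the bile acid receptor, and lies at chr10:89454234-89533645. H3K4me2 covered 32901 bp in KO and 32436 bp in WT (36.8% against 36.3%, ratio 1.01). H3K27ac covered 55736 bp in KO and 61469 bp in WT (62.3% against 68.7%, ratio 0.907). Nr0b2 encodes SHP, the FXR target that represses Cyp7a1 and Cyp8b1, and lies at chr4:133553376-133556686. H3K4me2 covered 8682 bp in KO and 9324 bp in WT (65.2% against 70.0%, ratio 0.931), and H3K27ac 9345 bp in KO and 9209 bp in WT (70.2% against 69.2%, ratio 1.01). The receptor and its target differed little in covered length. At Nr0b2, 90.5% of the H3K4me2 and 96.7% of the H3K27ac length covered in either genotype was covered in both, against medians of 70.1% and 61.0% over all genes tested.

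The promoter of Nr0b2 (chr4:133553126-133553425, plus strand, RefSeq GRCm38.p6) is shown because it alone among 8 bile acid gene promoters holds an E2F word. Capitals mark TTCCCGC, which starts 45 bases upstream of the start, and TATAAA, which starts 28 bases upstream.
Nr0b2: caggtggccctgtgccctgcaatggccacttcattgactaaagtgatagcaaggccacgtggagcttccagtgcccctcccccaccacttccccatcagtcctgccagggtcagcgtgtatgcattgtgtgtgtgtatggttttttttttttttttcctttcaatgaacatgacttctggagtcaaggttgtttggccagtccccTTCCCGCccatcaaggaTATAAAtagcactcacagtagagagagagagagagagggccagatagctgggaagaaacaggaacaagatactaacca

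Abcb11 encodes the bile salt export pump of the canalicular membrane and lies at chr2:69238282-69342616. H3K4me2 covered 8878 bp in KO and 8292 bp in WT (7.76% against 7.25%, ratio 1.07). H3K27ac covered 12639 bp in KO and 8920 bp in WT (11.1% against 7.80%, ratio 1.42), short of the call. The H3K27ac region over the start was 7812 bp wide in KO, where WT had a 3630 bp region over the start and a separate one of 2394 bp. In the authors' fold enrichment, which belongs to each region alone, the start region stood at 7.66 in KO and 10.3 in WT, and in the WT list it ranked 713 of 63321. The wider KO region thus had the lower deposited fold, though folds of different lists are not on one scale. With regions of -log10 q-value under 2 left out, the ratio was 1.80 and Abcb11 was called longer, as it was with lists divided by their covered length (1.54).

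Abcc2, a canalicular pump for conjugated organic anions, lies at chr19:43782308-43838332. H3K4me2 covered 24439 bp in KO and 21262 bp in WT (37.0% against 32.2%, ratio 1.15). H3K27ac covered 35782 bp in KO and 40326 bp in WT (54.2% against 61.1%, ratio 0.887). Its H3K27ac region over the start was about as wide in KO, at 21089 bp, as in WT, at 20708 bp. The 2 canalicular pumps thus lay on opposite sides of equality for H3K27ac, and neither passed the call.

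The promoter of Abcb11 (chr2:69342567-69342866, minus strand, RefSeq GRCm38.p6) lies under the H3K27ac region that differed in width. Capitals mark TGACCT, the nuclear receptor word AGGTCA on the other strand, 56 bases upstream of the start at its far end.
Abcb11: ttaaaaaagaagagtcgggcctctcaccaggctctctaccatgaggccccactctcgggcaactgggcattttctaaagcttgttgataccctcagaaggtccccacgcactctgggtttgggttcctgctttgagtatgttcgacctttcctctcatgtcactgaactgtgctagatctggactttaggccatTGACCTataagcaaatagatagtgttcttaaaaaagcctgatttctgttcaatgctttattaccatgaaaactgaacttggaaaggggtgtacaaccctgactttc

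Slc10a1 encodes the sodium-dependent carrier that takes conjugated bile acids up from blood, and lies at chr12:80953185-80968705. H3K27ac covered 24032 bp of its window in KO and 14530 bp in WT, which is 94.2% against 56.9%, a ratio of 1.65. Of 14598 genes, 16, this one included, were as far up in H3K27ac points. H3K4me2 went the other way, with 17610 bp in KO and 19068 bp in WT (69.0% against 74.7%, ratio 0.924). A single KO H3K27ac region of 21624 bp (chr12:80956382-80978005) lay where WT had 5 separate regions, of which the one over the start was 7564 bp wide. It reached 8393 bp farther upstream and 5667 bp farther downstream than that WT region. The H3K4me2 region over the start was narrower in KO, at 7479 bp, than in WT, at 11683 bp, and ended 503 bp upstream of the start in KO and 3099 bp in WT. The 2 marks thus parted at Slc10a1, with H3K27ac longer and H3K4me2 slightly shorter in KO. Within the gene alone the H3K27ac ratio was 1.37, and with 2000 bp on both sides it was 1.45, both short of the call.

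The promoter at the outer start of Slc10a1 (chr12:80968656-80968955, minus strand, RefSeq GRCm38.p6) is shown because it lies inside the long KO region. Capitals mark TTTATA, the word TATAAA on the other strand, 128 bases upstream of the start at its far end. A second annotated start lies downstream at 80968079.
Slc10a1: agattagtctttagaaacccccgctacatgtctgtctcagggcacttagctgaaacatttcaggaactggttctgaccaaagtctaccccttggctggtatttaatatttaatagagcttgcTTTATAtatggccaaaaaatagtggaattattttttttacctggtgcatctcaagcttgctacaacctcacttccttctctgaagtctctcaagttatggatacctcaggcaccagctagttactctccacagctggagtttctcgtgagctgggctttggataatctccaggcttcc

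**Figure D2:**
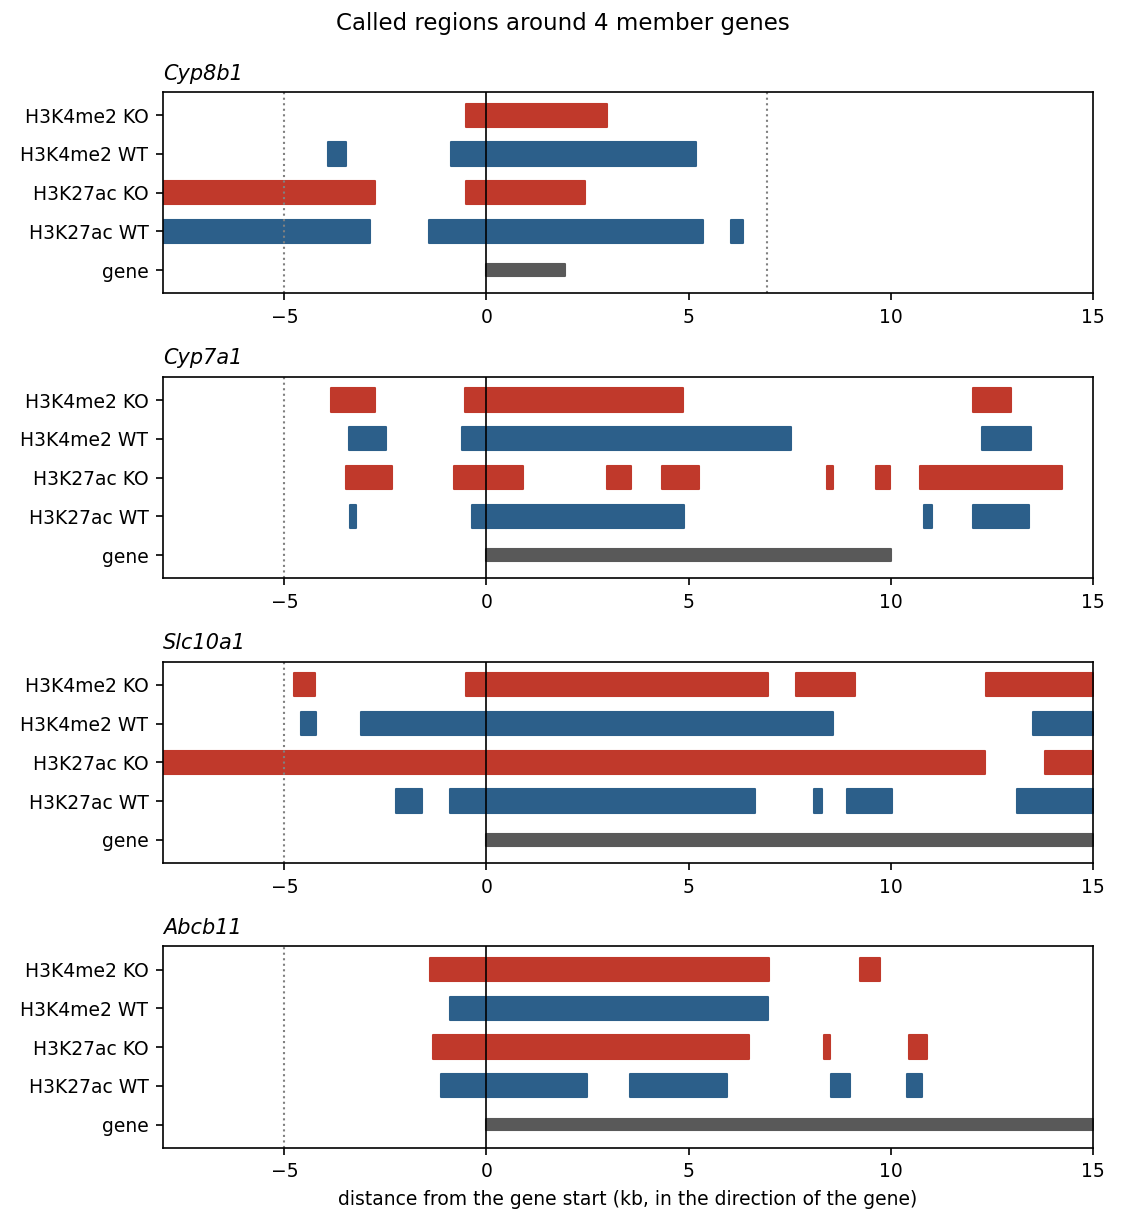
Called regions along Cyp8b1, Cyp7a1, Slc10a1 and Abcb11, by distance from the gene start in kb in the direction of the gene, with KO above WT for each mark. Grey bars are the genes, dotted lines mark the ends of the window where they fall in view, and only regions that overlap the window are drawn. At Cyp8b1 the KO regions over the start end nearer to the gene than the WT regions, and at Slc10a1 a single KO H3K27ac region of 21624 bp overlaps 5 WT regions, of which 1 lies beyond the window and is not drawn.

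Slco1b2, an uptake carrier for unconjugated bile acids and other organic anions, lies at chr6:141629452-141686646. H3K4me2 covered 13103 bp in KO and 14257 bp in WT (19.5% against 21.2%, ratio 0.919). H3K27ac covered 26534 bp in KO and 23136 bp in WT (39.5% against 34.4%, ratio 1.15). The regions over its start nearly coincided, but 10 KO and 9 WT H3K27ac regions elsewhere in the window had no counterpart in the other genotype. The uptake carriers shared the direction for each mark, but only Slc10a1 passed the call for H3K27ac.

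**Figure D3:**
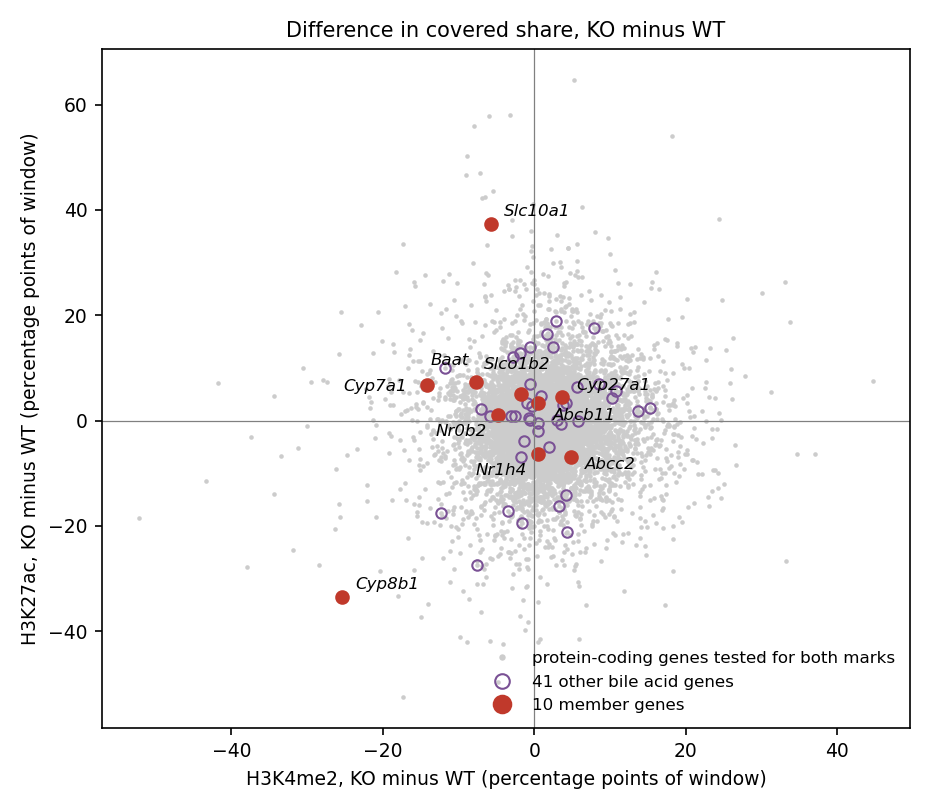
Difference in the covered share of the window, KO minus WT in percentage points, for H3K4me2 (horizontal) and H3K27ac (vertical), over genes tested for both marks (grey), other bile acid genes (open) and the 10 genes described (red). Cyp8b1 is low on both axes, Slc10a1 is high for H3K27ac alone, and the other 8 lie within 15 points of equality on both axes.

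The region over the start was narrower in KO at 8 of 10 genes for H3K4me2, with a median width of 8293.5 bp in KO and 9756 bp in WT. For H3K27ac it was narrower at 3 and wider at 7, with a median of 12022.5 bp in KO and 8786.5 bp in WT. The H3K4me2 region ended closer to the start on its upstream side in KO at 8 of 10 genes. The exceptions were Abcb11, with 1390 bp in KO and 912 bp in WT, and Abcc2, with 3296 bp in KO and 2535 bp in WT. Among genes with a RefSeq start covered in both genotypes, the H3K4me2 region was narrower in KO at 40.3% of 10380, wider at 59.6% and shorter upstream at 42.1%. The H3K27ac region was narrower at 43.8% of 8242 and wider at 56.1%. Of the 8 bile acid genes with a RefSeq start, the H3K4me2 region was narrower at 6 and shorter upstream at 6, and the H3K27ac region was narrower at 2. These are counts over few genes and 1 library per genotype, and carry no test. Every start region of the 10 genes was wider than the median region of its list, which was 880 bp in KO and 941 bp in WT for H3K4me2 and 1077 bp in KO and 1036 bp in WT for H3K27ac.

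Few H3K4me2 regions at these genes belonged to a single genotype. Of 39 KO regions 4 (10.3%) had no overlapping WT region, against 28.1% of the KO list, and of 37 WT regions 4 (10.8%) had no KO overlap, against 20.4% of the WT list. For H3K27ac these were 30 of 73 KO regions (41.1%), against 24.6% of the list, and 23 of 73 WT regions (31.5%), against 34.2%. Unmatched H3K27ac regions were narrow, with a median of 341.5 bp in KO and 472 bp in WT, and none exceeded a -log10 q-value of 2.83 in KO or 3.34 in WT. They were most frequent in the long windows of Slco1b2, Abcc2, Abcb11 and Nr1h4.

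H3K4me2 covered 62.4% of the summed H3K27ac length at the 10 genes in KO and 64.8% in WT. At Cyp7a1 it covered 50.3% in KO and 93.9% in WT, and at Slc10a1 67.3% in KO and 89.6% in WT. At Abcc2 the order was the other way, with 64.4% in KO and 52.7% in WT. The overlap of the marks thus differed between genotypes at single genes while the sums over the 10 were close. They were not close among regions with a −log10 q-value of at least 5, at 65.2% in KO and 86.2% in WT, or of at least 10, at 49.5% in KO and 64.1% in WT. In WT the overlap joins an H3K27ac library with the Y genes covered to an H3K4me2 library with Xist covered. In KO both libraries had Xist covered and no Y gene covered. Genotype and this pattern cannot be told apart in the overlap.

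E2f4 was found in the window of 1 of the 10 genes in any library, against 10.8% of all 21887 genes, which is near the background. Of 10 genes, 0 and 0 had a summit in the KO libraries, against 0 and 1 in the WT libraries (mean 0 ± 0 in KO and 0.5 ± 0.707 in WT, SD, n = 2 each). The exact two-sided permutation test over the 6 assignments gave p = 1, which these counts fixed in advance. With a summit in 1 library only, every assignment gives the same size of difference, so the test cannot compare the genotypes. The smallest p for 2 libraries per genotype, 0.333, was out of reach. Among all genes, 1.57% and 4.19% had a summit in the KO libraries, against 9.32% and 6.23% in the WT libraries. The single summit lay inside Slc10a1, 2504 bp downstream of its start, in WT replicate 2 (chr12:80966136-80966283). Its fold enrichment was 7.61 and it ranked 682 of 1058 in that list. WT replicate 1 had no summit there.

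Outside the windows, the nearest E2f4 summit to Abcb11 lay 32.1 and 32.1 kb from the gene in KO and 32.0 and 32.1 kb in WT, at the same site in all 4 libraries. The nearest summit to Cyp27a1 lay 51.0 kb away in KO replicate 2 and in both WT libraries. Single libraries had a summit 17.1 kb from Cyp8b1 (KO replicate 1), 7315 bp upstream of Nr0b2 (WT replicate 2) and 10245 bp from Nr1h4 (WT replicate 1). Of these sites, those near Abcb11 and Cyp27a1 were shared by libraries of both genotypes.

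Promoter entries were found in RefSeq GRCm38.p6 for 8 of the 10 genes, and not for Cyp7a1 and Baat. GC content ran from 35.3% to 55.3% with a median of 45.5%, against a median of 52.7% over 32851 promoters. Exact words were searched on both strands, 250 bases before to 50 after the outer start. Shares of all promoters count every annotated start, so the bases of the 2 differ. AGGTCA, bound by nuclear receptors, was in 4 of 8 (Nr1h4, Abcb11, Abcc2 and Slco1b2) and in 16.3% of all promoters. It also lay 87 bases upstream of the second start of Slc10a1, which was not counted. AAGGTCA, which contains AGGTCA, was in Abcc2 and in 4.72% of all. GTTAAT, part of the HNF1 site, was in Nr1h4 and Slco1b2 and in 7.10% of all, and TGTTTAC, the FOXA core, was in 0 of 8 and 3.65% of all. TATAAA was in 4 of 8 (Cyp8b1, Nr0b2, Slc10a1 and Slco1b2) and 13.6% of all, and an E2F word (TTCCCGC, the word TTGGCGC, the word TTGCCGC or the word TTCGCGC) in Nr0b2 and 9.57% of all. A match describes the letters only, and no E2f4 summit lay in the window of Nr0b2.

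A wider list of 43 bile acid genes was read in the same way. For H3K4me2, 42 were tested, 2 were shorter and 2 longer in KO, with a median difference of 0.72 points. For H3K27ac, 42 were tested, 6 were shorter and 8 longer, with a median of 1.39 points. Against the shares over all genes given above (5.98% and 11.9% for H3K4me2, 17.3% and 13.2% for H3K27ac), these counts do not set the list apart. By role, H3K27ac was shorter at 1 and longer at 3 of 15 synthesis genes, shorter at 5 and longer at 4 of 14 transport genes, and shorter at 0 and longer at 1 of 13 regulators tested. These numbers are small and were not tested against the shares over all genes, so no role is singled out.

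**Figure D4:**
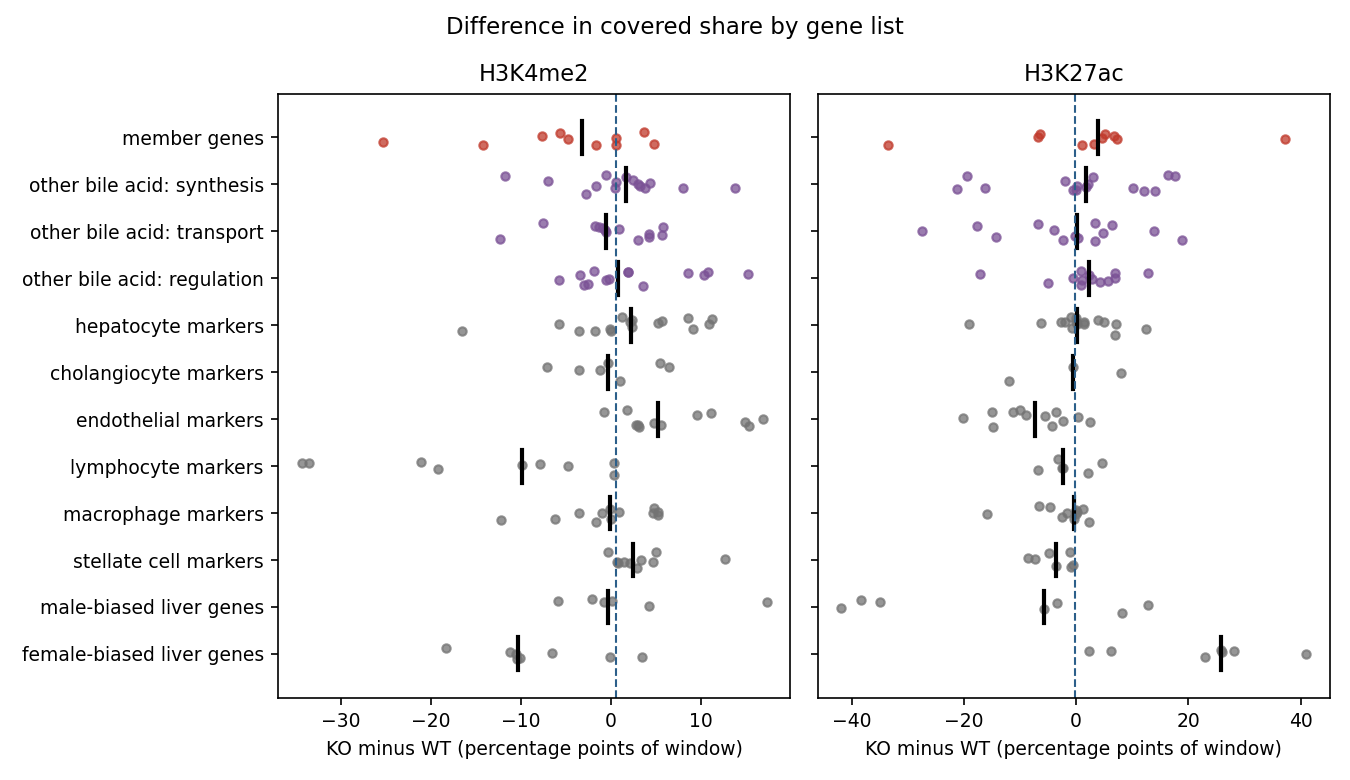
Difference in the covered share of the window, KO minus WT in percentage points, for the genes tested in each list, with H3K4me2 on the left and H3K27ac on the right. Each point is 1 gene with vertical jitter, black bars are list medians and the dashed line is the median of all genes tested. The 10 bile acid genes (top) have medians of -3.27 points for H3K4me2 and 3.90 for H3K27ac, and the female-biased liver genes have medians of -10.3 and 25.9.

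Slc10a2, the ileal bile acid carrier that bile duct cells also use, was shorter in KO for both marks. It had 3725 bp of H3K4me2 in KO and 7685 bp in WT, and 4814 bp of H3K27ac in KO and 10455 bp in WT. Cyp7b1, the oxysterol hydroxylase of the alternative pathway, had 4200 bp of H3K4me2 in KO and 7193 bp in WT, and 4585 bp of H3K27ac in KO and 39924 bp in WT. Cyp7b1 is known as a male-biased gene in mouse liver. The part of the sex chromosome pattern in its H3K27ac difference was not tested, nor was it at any other gene named here. Slc10a2 and Cyp7b1 were the 2 list genes called shorter for H3K4me2.

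Among the other pumps, Abcc4, which exports bile acids to blood, was longer in KO for both marks, with 23249 bp of H3K4me2 in KO and 13243 bp in WT and 15947 bp of H3K27ac in KO and 8029 bp in WT. Abcc3, which also exports to blood, was shorter in H3K27ac, with 9473 bp in KO and 25863 bp in WT. Abcc4 and Abcc3 thus differed in opposite directions for H3K27ac, while Abcc3 was not called for H3K4me2 (ratio 0.677). Gpbar1, the membrane receptor for bile acids, was longer in H3K4me2, with 3256 bp in KO and 1581 bp in WT.

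Of the genes called longer in KO for H3K27ac, the largest differences in points were at Slco1a4, an organic anion carrier, with 16965 bp in KO and 5471 bp in WT, and at Cyp2c70, which makes muricholic acids in mice, with 10541 bp in KO and 3360 bp in WT. Akr1d1, a reductase of the synthesis pathway, had 18369 bp in KO and 10701 bp in WT. None of these 3 was called for H3K4me2. Across both lists, Cyp8b1, Slc10a2 and Cyp7b1 were shorter in KO for both marks.

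By Euclidean distance over the 4 covered shares (H3K4me2 and H3K27ac in KO and WT), the genes nearest to the mean of the 10 were Pebp1 at 3.88, Stbd1 at 4.38, Mief1 at 4.40, Ubxn1 at 5.02 and Tnfaip8l2 at 5.09 percentage points. The mean itself was 39.5% in KO and 44.5% in WT for H3K4me2, and 54.2% in KO and 52.4% in WT for H3K27ac. The lists cannot check the deletion of Arid1a, whose window had 32438 bp of H3K4me2 in KO and 24677 bp in WT, since the deleted part is not given.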

How the data were processed

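The deposited lists hold 1 set of called regions per library, in narrowPeak form for E2f4 and broadPeak form for the marks, with no counts, so depth is unknown. Bowtie2 2.2.3, Picard, MACS2 2.0.10.20131216, HOMER and mm10 come from the submitters' processing notes, without roles. The sources used here do not give the use of the 8 inputs. Each deposited region carries a fold enrichment (a ratio), a −log10 p-value, a −log10 q-value and a score. The deposited fold served for description, the −log10 q-value for ranks and filters, and the summit offset for E2f4 positions, while p-value and score were not used.

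Genes were placed with RefSeq GRCm38.p6. Covered bases were summed per window of 5000 bp beyond the gene's ends, with genes tested at 500 bp and called at 1.5-fold. The start is the outermost RefSeq promoter start, or for Cyp7a1 and Baat the end with more H3K4me2 within 2000 bp. For Nr1h4 (minus strand) the promoter start used, 89506658, lies inside the gene, whose outer end is at 89533645. Its start region and upstream edges refer to that inner start. Regions overlapped at 1 bp. The genes, lists and rules were chosen with earlier results of these data known. Named were the 10 genes, up to 3 called list genes per mark and direction with the largest difference in points, and the 5 nearest patterns, with counts for cell type lists. Slc10a1 and Abcb11 promoters, Xist and the Y genes were chosen after their values were seen. Other windows, −log10 q-value minimums, scaling, merging and call folds were tried. Python 3.11.15, numpy 2.4.6, pandas 2.3.3 and matplotlib 3.10.9 were used, and the functions were tested on simulated data.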

Additional observations from a re-analysis of the deposited data

How the results depend on the processing

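Of 255 ratios of the 10 genes under alternatives, 233 kept their call status, 10 lost a call and 12 gained one. None of the ratios called in the results above, at Cyp8b1 for both marks and Slc10a1 for H3K27ac, turned its direction. Cyp7a1, not called there, was called in both directions for H3K27ac. It was shorter in the gene alone (0.592) and longer with −log10 q-values of at least 5 (2.55). Calls were judged at 1.5-fold, except under the 2-fold setting, where 2-fold was used. The 2-fold setting and other minimum lengths for testing left the covered lengths as they were. Ratios under those settings were therefore unchanged by construction, which raises the number that kept their status. A further 5 had no ratio, all with −log10 q-values of at least 10, where 3 were not tested and Cyp27a1 and Nr0b2 were called longer for H3K27ac with no WT length. Of 8 genes not called for H3K27ac in the results above, 4 had ratios on both sides of equality under the alternatives. These were Cyp7a1 (0.592 to 2.55), Nr1h4 (0.672 to 1.51), Abcc2 (0.866 to 1.22) and Cyp27a1 (0.971 to 1.20). Among these extremes, both of Cyp7a1 and the upper one of Nr1h4 passed the call in their own setting. For H3K4me2, ratios lay on both sides of equality at 5 of 9 genes not called above. These were Slc10a1 (0.710 to 1.09), Abcc2 (0.906 to 1.25), Nr1h4 (0.845 to 1.04), Cyp27a1 (0.975 to 1.13) and Abcb11 (0.998 to 1.10). Of the 10 genes, H3K4me2 was shorter in KO at 0 with 10000 bp flanks or a 2-fold call and at 2 with −log10 q-values of at least 2, 5 or 10, against 1. H3K27ac was shorter at 0 with 10000 bp flanks or a 2-fold call. It was longer at 0 in the gene alone, with 2000 bp flanks or a 2-fold call, at 2 with a −log10 q-value of at least 2 or lists divided by covered length, and at 4 with at least 5 or 10, against 1. Which genes were called also moved. Cyp8b1 was not called for either mark in the gene alone (1.0) or with 10000 bp flanks (0.723 for H3K4me2 and 0.700 for H3K27ac), nor for H3K4me2 with 2000 bp flanks (0.722). Cyp7a1 was called shorter for H3K4me2 in the gene alone (0.647), with 2000 bp flanks (0.663) and with −log10 q-values of at least 2 (0.617) or 5 (no KO length), and Slco1b2 with at least 10 (no KO length).

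Of the 43 list genes, H3K4me2 was shorter at 1 near the start or with a 2-fold call and at 4 with −log10 q-values of at least 2 or 10, against 2. It was longer at 1 with 2000 bp flanks, with at least 10, or with a 2-fold call, against 2. H3K27ac was shorter at 1 near the start, against 6, and longer at 3 with a 2-fold call, against 8.

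Unmatched regions in the windows of the 10 genes numbered 18 for H3K4me2 with 50% overlap, and 5, 2 and 1 with −log10 q-values of at least 2, 5 and 10, against 8. For H3K27ac they numbered 27, 2 and 4, against 53. The share of H3K27ac under H3K4me2 was 65.2% in KO and 86.2% in WT with at least 5, and 49.5% in KO and 64.1% in WT with at least 10. Genes with an E2f4 summit numbered 2 with 10000 bp flanks and 5 with 50000 bp, and 0 without WT replicate 2, with a range of 0 to 1 over libraries left out. The causes were not tested. The E2f4 replicate number as a block was an alternative added after the data were seen. The mean difference in genes with a summit was then -0.5, the same by construction. The exact sign-flip permutation test over 2 pairs of libraries gave p = 1, which the counts fixed in advance. Every sign assignment gives the same size of mean, so the smallest possible p of 0.5 was out of reach. The block is therefore no check. The labels give these libraries only a shared number. The marks have 1 library per genotype and hence no pairs. Depth, which the lists do not give, limits every length, and a stretch not called may still carry the mark.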
